A study of Homo sapiens with 4 samples.

Results

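The genes described here are 9 genes of the p53 pathway in HEK-293 cells, chosen by name for their known link to p53 and not by a measured value: the p53 inhibitors MDM2 and MDM4 and the p53 target genes CDKN1A, GADD45A, BAX, BBC3, TP53I3, SESN1 and GDF15. The choice was made with earlier results of these data known. Each gene matched 1 of the 24934 rows of the expression table. HEK-293 is an established line of human embryonic kidney cells transformed with adenovirus DNA. The cells were transfected for 48 h with 10 nM of one of the siRNAs si4 or si5, both against ZSCAN5A, si1, against ZSCAN5B, or a scrambled siRNA (the control), and the labels give no other treatment for any group. ZSCAN5A and ZSCAN5B are zinc finger proteins of one family. RNA was sequenced from 1 library for each siRNA, so no treatment has a replicate, calls rest on the size of a fold and not on a p-value, and p-values come only from an alternative limma fit that treats si4 and si5 as a group. These are separate siRNAs to the same gene and not repeats of one.

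p53 is a transcription factor that is stabilised after DNA damage and other stress and switches on genes for cell cycle arrest, DNA repair and apoptosis. MDM2 is a ubiquitin ligase that marks p53 for degradation and is itself a p53 target, which closes a negative feedback loop, and MDM4 is its relative that binds and restrains p53. HEK-293 cells express the adenoviral E1A and E1B proteins, and E1B binds p53 and blunts its activity. The libraries measure RNA alone, and p53 protein was not analysed here.

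The 3 siRNAs are shown first because every comparison rests on them. Each targets 21 bases of coding sequence in the last exon of its gene on the minus strand of chromosome 19 (GRCh37, also called hg19), and the capitals mark the bases that pair with the seed of the guide strand, guide bases 2 to 8. The si4 site is at chr19:56733332-56733352 and the si5 site at chr19:56733307-56733327, both in exon 6 of 6 of ZSCAN5A, and the si1 site is at chr19:56701591-56701611 in exon 5 of 5 of ZSCAN5B.
si4 target in ZSCAN5A: cgagaagaggtttACGTGTAa
si5 target in ZSCAN5A: aagctagtcatccACAAGAGa
si1 target in ZSCAN5B: acgtgtgcaataaATCATTTa

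Values are FPKM, fragment counts scaled to transcript length and to library depth by the authors' software, and so can be set side by side between genes. ZSCAN5A stood at 0.730 FPKM with si4 and 0.713 FPKM with si5, against 2.42 FPKM in the control, which is 30.2% and 29.5% of the control. ZSCAN5B was close to the limit of detection, from 0.0331 to 0.0948 FPKM over the 4 libraries, and its level with si1 was 105% of the control (exact Clopper-Pearson 95% interval 48.6% to 228%, from 16 and 15 recovered fragments). The si1 library is therefore called the library labelled ZSCAN5B knockdown. The study itself reported lower ZSCAN5B transcript with si1 by qRT-PCR and lower ZSCAN5B protein by Western blot. Its qRT-PCR also gave lower ZSCAN5D with si4 and si5, and to a smaller extent with si1, and higher ZSCAN5B with si4. In the libraries ZSCAN5B with si4 went the other way, at 0.0331 FPKM or 36.6% of the control. That value rests on 6 and 15 recovered fragments (95% interval 11.6% to 99.9%, counting error alone). The steps between low FPKM values gave depths of 1.09 for si4, 1.54 for si5 and 1.02 for si1 relative to the control. PAX2, LHX1, VIM and NEFM, which HEK-293 cells express, were found at 0.584 to 359 FPKM, whereas ALB, PTPRC, HBB, KRT5 and INS, markers of other cell types, did not exceed 0.0335 FPKM. PAX2 was the lowest of the expressed markers, at 0.584, 0.615 and 0.608 FPKM with si4, si5 and si1 and 1.16 FPKM in the control.

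The sequences below show what the target genes carry near their starts. p53 binds DNA as a tetramer at a pair of short repeats, each with a core of the form CNNG. The closest match to the 20-base p53 consensus, with no spacer between the repeats and with both cores kept, was searched within 5000 bases on either side of the start of each gene's canonical GENCODE transcript in GRCh37. The consensus is its own reverse complement in letter code, so that one scan covers both strands. Capitals mark the 2 CNNG cores, and each match is printed along the strand of its gene.
CDKN1A: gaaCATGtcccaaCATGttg
GADD45A: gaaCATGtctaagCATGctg
MDM2: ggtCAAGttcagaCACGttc
GDF15: catCTTGcccagaCTTGtct
BAX: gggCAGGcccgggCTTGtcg
BBC3: ctgCAAGtcctgaCTTGtcc
MDM4: atgCTTGttttggCTTGgcg

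The GADD45A match, in intron 3 at chr1:68152458-68152477, differed from the consensus at 1 of 20 bases. The matches of CDKN1A (chr6:36644226-36644245, 2256 bases upstream of the start), MDM2 (chr12:69202703-69202722, intron 1), GDF15 (chr19:18496118-18496137, 841 bases upstream) and BAX (chr19:49458470-49458489, intron 1) differed at 2 bases. The BBC3 match, at chr19:47734577-47734596 and 130 bases upstream, differed at 3 bases, as did the closest matches of SESN1 and TP53I3. The loci in the expression table cover other transcripts too, and the BBC3 match lies inside its locus there and the CDKN1A match at the edge of its own. MDM4 was the member furthest from the consensus, with 4 equally close matches that each differed at 4 bases, and the one printed lies in intron 1 at chr1:204486075-204486094. Windows of the same length around 19866 protein-coding genes held a match with at most 2 mismatches in 7.67% of cases, against 5 of the 9 genes, and one with at most 3 mismatches in 41.2%, against 8 of the 9. The genes were picked as known parts of the p53 pathway, and a match near one is a description of its sequence and shows no binding in these cells.

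The 9 genes spanned a wide range of levels in control cells (see the plot of levels by library). BAX, which permeabilises the outer mitochondrial membrane in apoptosis, and CDKN1A, which encodes the cyclin-dependent kinase inhibitor p21, stood highest at 79.6 and 71.3 FPKM. Of the genes with at least 1 FPKM in the control, 93.3% were lower than BAX and 92.5% lower than CDKN1A. GADD45A followed at 38.7 FPKM, SESN1 at 28.1 FPKM, MDM2 at 24.6 FPKM and BBC3 at 17.5 FPKM. MDM4 and TP53I3 were lower at 6.04 and 5.60 FPKM, and GDF15 was the lowest at 0.895 FPKM. Neighbours in this order kept separate ranges over the 4 libraries, except MDM4 (3.83 to 6.04 FPKM) and TP53I3 (4.79 to 5.68 FPKM), which overlapped and changed places. The level of TP53I3 was 0.928 times that of MDM4 in the control and 1.48, 1.24 and 1.33 times it with si4, si5 and si1.

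**Figure D1:**
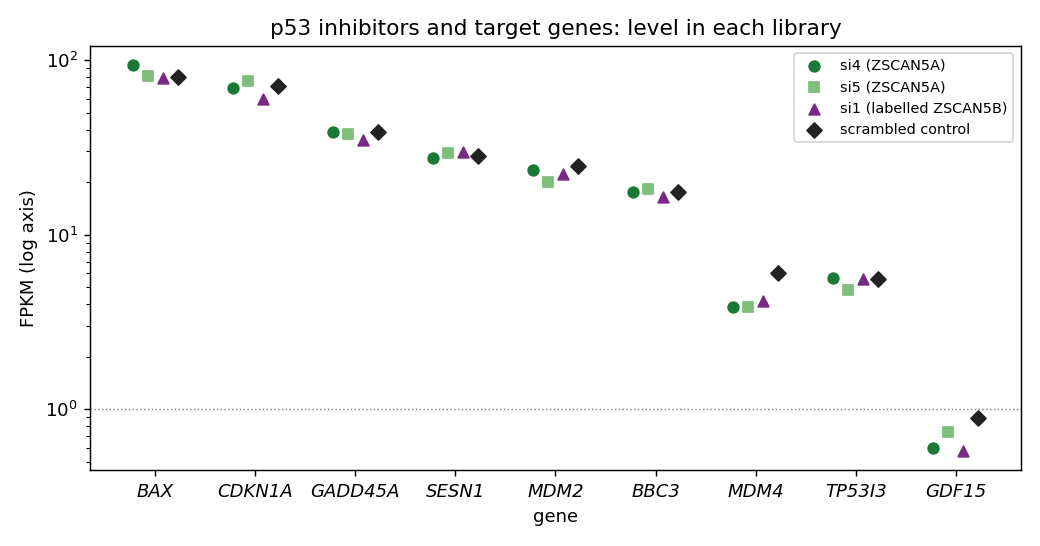
FPKM of the 9 genes in each of the 4 libraries, on a log axis, with 1 point per library and no error bar because each siRNA has 1 library. The 4 points of a gene lie close together except for MDM4 and GDF15, whose control value is the highest of the 4, and GDF15 is the one gene below 1 FPKM throughout.

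MDM4 (chr1:204485507-204527248, plus strand), the p53-binding relative of MDM2, was the member that differed most from the control among those at 1 FPKM or above. Its level was 3.83 FPKM with si4, 3.86 FPKM with si5 and 4.18 FPKM with si1, against 6.04 FPKM in the control. The 3 siRNA libraries lay within 1.09-fold of each other, and all were below the control, at 63.5%, 63.9% and 69.2% of it. The mean of si4 and si5 was 1.57-fold lower than the control (log2 ratio -0.65), and the library labelled ZSCAN5B knockdown was 1.45-fold lower (log2 ratio -0.53). A ratio past 1.5-fold was called a change, provided that the gene reached 1 FPKM in some library compared, so MDM4 fell with the ZSCAN5A siRNAs and did not pass with si1. Among all genes tested, 2.19% had a lower ratio than MDM4 with the ZSCAN5A siRNAs and 4.11% with si1.

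The distance between si4 and si5 serves as a yardstick where no replicate exists, although it holds the difference between siRNAs as well as that between libraries. Among 4346 genes of a level like that of MDM4, 95% differed between si4 and si5 by at most 0.47 on the log2 scale. The MDM4 ratios of -0.66, -0.65 and -0.53 with si4, si5 and si1 all exceeded that distance, but they share the 1 control library and are not independent of each other. The control has no part in that distance, which therefore holds no difference between the control and the siRNA libraries. Of 12983 genes tested, 144 passed 1.5-fold lower in all 3 siRNA libraries and 21 higher. MDM4 was covered by about 324 fragments per kilobase in the control and 225 in the si4 library. It has a long transcript of 10050 bases, and genes of like length and GC content had a median log2 ratio of -0.13 in both comparisons. With that median removed, MDM4 was 1.43-fold lower with the ZSCAN5A siRNAs (log2 ratio -0.52) and 1.32-fold lower with si1 (log2 ratio -0.40), neither past 1.5-fold, and what part length and GC content had in its ratio was not tested. In a limma fit of the 4 libraries, which assumes that the lone control varies like the others, its Benjamini-Hochberg adjusted p was 0.40.

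The 3' UTR of MDM4, 8441 bases long, held 2 sites for the si5 seed and 1 for the si1 seed, printed in capitals above, and none for the si4 seed. Among 699 genes with a 3' UTR of similar length, within 1.5 times that of MDM4, 40.9% held a si5 seed site, 73.7% a si1 site and 11.9% a si4 site. MDM2 held 1 si1 site, and no other member held a site for any of the 3 seeds. The part of these sites in the MDM4 level was not tested.

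MDM2 (chr12:69201971-69239212, plus strand), the main negative regulator of p53 and one of its targets, stood at 23.6 FPKM with si4, 20.1 FPKM with si5, 22.4 FPKM with si1 and 24.6 FPKM in the control. All 3 siRNA libraries were below the control, but the largest log2 ratio, -0.29 with si5, was within the 0.40 that bounds 95% of si4 to si5 differences at that level. Within each library MDM2 exceeded MDM4, by 4.07-fold in the control and by 6.15-fold, 5.20-fold and 5.35-fold with si4, si5 and si1.

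The arrest genes did not pass the fold limit. CDKN1A (chr6:36644237-36655116, plus strand), the best known p53 target, stood at 69.1 FPKM with si4, 75.6 FPKM with si5, 59.7 FPKM with si1 and 71.3 FPKM in the control. The siRNA values lay on both sides of the control, with log2 ratios of -0.05, 0.08 and -0.26, each within the 0.36 seen for 95% of genes of like level between si4 and si5. GADD45A (chr1:68150860-68154021, plus strand), a stress protein linked to DNA repair and arrest before mitosis, stood at 38.6, 37.6 and 34.8 FPKM with si4, si5 and si1 and at 38.7 FPKM in the control. Its control value was the highest of the 4 by a narrow margin, and its largest log2 ratio was -0.15 with si1.

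The apoptosis genes did not pass it either. BAX (chr19:49458117-49465055, plus strand) stood at 93.6 FPKM with si4, 81.1 FPKM with si5, 79.1 FPKM with si1 and 79.6 FPKM in the control. The si4 library gave the highest value, with a log2 ratio of 0.23, which is within the 0.35 that bounds 95% of si4 to si5 differences at that level. Its log2 ratio for the mean of si4 and si5 was 0.13 as deposited and 0.00 once genes of like length and GC content were taken as the baseline. BBC3 (chr19:47724079-47736023, minus strand), which encodes the BH3-only protein PUMA, stood at 17.5, 18.3 and 16.4 FPKM with si4, si5 and si1 and at 17.5 FPKM in the control. TP53I3 (chr2:24300303-24308085, minus strand), an oxidoreductase gene also known as PIG3, stood at 5.68, 4.79 and 5.54 FPKM with the 3 siRNAs and at 5.60 FPKM in the control. The control values of BAX, BBC3 and TP53I3 lay between those of the siRNA libraries. The BBC3 locus overlaps the rows of MIR3190 and MIR3191, and how fragments were divided between them is not given in the sources used here.

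SESN1 (chr6:109307640-109415708, minus strand), which encodes a sestrin that restrains mTORC1 under stress, varied least among the 9 genes, at 27.5 FPKM with si4, 29.5 FPKM with si5, 29.9 FPKM with si1 and 28.1 FPKM in the control. GDF15 (chr19:18496968-18499986, plus strand), a secreted stress cytokine of the TGF-beta superfamily, was below 1 FPKM in every library and so was not tested, at 0.599, 0.735 and 0.576 FPKM with si4, si5 and si1 and 0.895 FPKM in the control. The GDF15 values stood in the proportions of 19, 33, 17 and 26 fragments, the smallest whole numbers that give them. From these, its ratio to the control was 0.669 with si4 (exact Clopper-Pearson 95% interval 0.350 to 1.26), 0.822 with si5 (0.477 to 1.43) and 0.643 with si1 (0.328 to 1.23). Each interval, which covers counting error alone, held 1. The true counts may be multiples of these numbers, because GDF15 had about 48 fragments per kilobase in the control and a transcript of 1200 bases. The intervals would then be narrower, so they do not settle whether GDF15 differed from the control. The GDF15 locus overlaps the row of MIR3189.

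**Figure D2:**
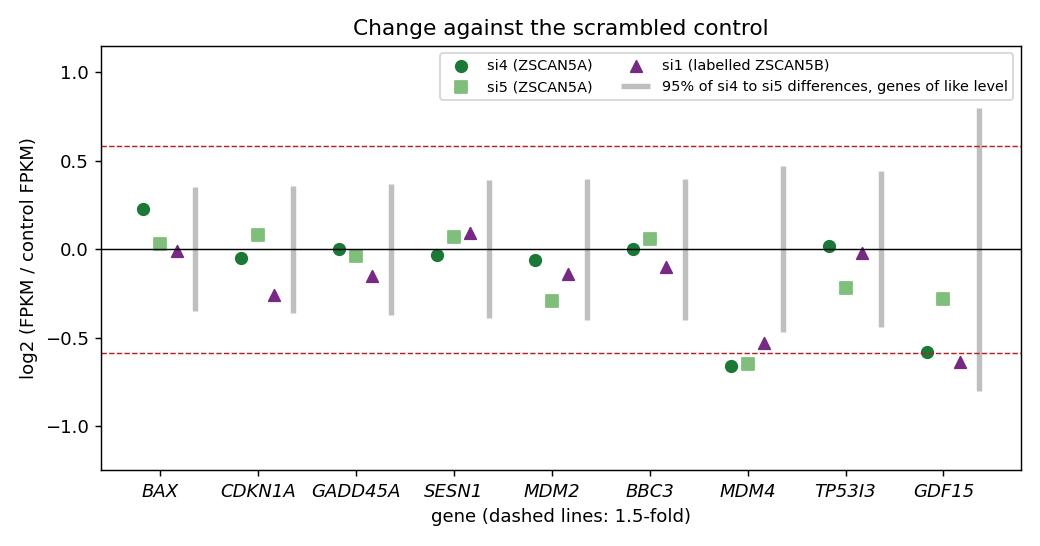
Log2 ratio of each of the 9 genes to the control in the si4, si5 and si1 libraries, 1 point per library, with the 1.5-fold limits as dashed lines and, in grey, the range that held 95% of si4 to si5 differences among genes of like level. The 3 points of MDM4, at -0.66, -0.65 and -0.53, lie together and beyond its grey bar, and the points of the other 8 genes lie within theirs. The grey range compares si4 with si5 and does not include the control.

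Of the 9 genes, 8 reached 1 FPKM and were tested. With the ZSCAN5A siRNAs, 1 of the 8 passed 1.5-fold in either direction (MDM4, lower), where 3.79% of the 12993 genes tested passed, 3.11% of them lower. With si1, 0 of the 8 passed, where 4.01% of 12921 genes passed, 3.17% of them lower. The median log2 ratio of the members was 0.00 with the ZSCAN5A siRNAs and -0.12 with si1, beside medians over all genes tested of -0.020 and -0.010. With si1, 7 of the 8 lay below the control, SESN1 being the exception, where 6660 of the 12921 genes tested did. With the ZSCAN5A siRNAs 4 lay below and 4 above, where 6929 of the 12993 genes tested lay below. The 2 comparisons share the control library and cannot be set against each other.

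No member passed 1.5-fold in one direction in all 3 siRNA libraries, where 1.27% of 12983 genes did, although MDM4 did so in both ZSCAN5A libraries. MDM2, MDM4 and GADD45A lay below the control in all 3, 3 of the 8, where 36.2% of all genes tested did, and none lay above it in all 3, where 30.1% did. The share below the control was thus close to the background. Leaving out si4 or si5 brought the number on one side of the control in the remaining libraries from 3 to 5. Such a number can only stay or rise when fewer libraries must lie on one side. The like share over all genes was not computed. A limma fit called 0 of the 8 members in the ZSCAN5A comparison, with 1 at an unadjusted p under 0.05, among 10 calls in 13078 genes.

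Of 24 genes in a list of p53 regulators, 23 were tested and 4 fell with the ZSCAN5A siRNAs, while none rose, where 3.79% of all genes tested passed and 3.11% were lower. They were MDC1, an adaptor of the DNA damage response, the kinase HIPK2, which phosphorylates p53, and the acetyltransferases EP300 and CREBBP, which act as p53 coactivators. MDC1 stood between 11.6 and 12.1 FPKM in the 3 siRNA libraries against 21.2 FPKM in the control, and HIPK2 at 2.94, 2.99 and 2.42 FPKM with si4, si5 and si1 against 4.75 FPKM. EP300 stood at 7.22, 6.86 and 6.84 FPKM against 11.0 FPKM, and CREBBP at 4.28, 4.16 and 4.30 FPKM against 6.54 FPKM. All 4 passed 1.5-fold in each of the 3 siRNA libraries, with the siRNA values close together and the control apart. Over all genes tested, 1.27% of 12983 passed in all 3, 144 of them lower and 21 higher.

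With si1, 6 of the 23 fell and none rose, where 4.01% of all genes tested passed and 3.17% were lower. The log2 ratios were -0.97 for HIPK2, -0.82 for MDC1, -0.68 for EP300 and -0.61 for CREBBP, joined by PPP1R13L (-0.69), an inhibitor of p53 also called iASPP, and the p53 relative TP73 (-0.66). The median of the regulators was 0.02 with the ZSCAN5A siRNAs and 0.06 with si1, with 13 of the 23 above the control in each comparison. Among all genes tested, 6064 of 12993 lay above it with the ZSCAN5A siRNAs and 6261 of 12921 with si1. At the upper end were CDKN2A, whose row covers both p16 and the MDM2 inhibitor ARF, at 158, 135 and 126 FPKM with si4, si5 and si1 against 103 FPKM in the control (log2 ratio 0.51 with the ZSCAN5A siRNAs, 0.29 with si1), the ribosomal protein gene RPL11, whose product binds MDM2 (0.31 and 0.26), and the acetyltransferase KAT5 (0.25 and 0.28), none past the limit.

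Length and GC content moved with these ratios. After removal of the median of genes of like length and GC content, the log2 ratios with the ZSCAN5A siRNAs were -0.55 for MDC1, -0.45 for HIPK2, -0.41 for EP300 and -0.27 for CREBBP, and 0 of the 4 passed. With si1, HIPK2 (-0.76) and PPP1R13L (-0.62) still passed, and MDC1 (-0.57), EP300 (-0.47), TP73 (-0.46) and CREBBP (-0.24) did not. The direction of each stayed below the control.

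**Figure D3:**
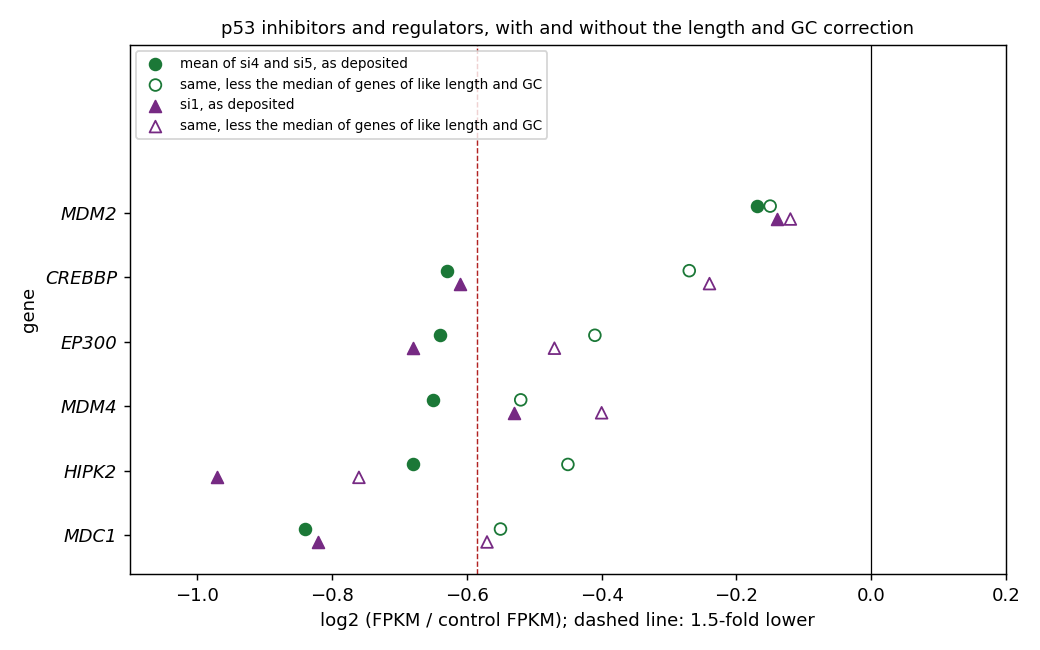
Log2 ratio to the control of MDM2, MDM4 and the 4 regulators that fell in both comparisons, for the mean of si4 and si5 (circles) and for si1 (triangles), as deposited (filled) and after removal of the median of genes of like length and GC content (open). The open symbols of MDM4 and the 4 regulators lie nearer to 0 than the filled ones, and those of MDM2 hardly move.

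Among 45 other p53 targets, 40 were tested, and 2 passed with the ZSCAN5A siRNAs, both lower, a share near the 3.79% of all genes tested that passed (3.11% lower). TP53INP1, a stress gene of autophagy and apoptosis, stood at 4.53, 4.27 and 5.99 FPKM with si4, si5 and si1 and 7.17 FPKM in the control (log2 ratio -0.70 with the ZSCAN5A siRNAs and -0.26 with si1). BTG2, an antiproliferative gene, stood at 31.0, 29.3 and 36.3 FPKM against 45.7 FPKM (-0.60 and -0.33). Both were lower with si4 and si5 than with si1, although their difference between siRNAs was not tested. After the length and GC correction TP53INP1 stood at -0.73 and BTG2 at -0.54, so that BTG2 no longer passed.

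With si1, 1 of the 40 passed, where 4.01% of all genes tested did (3.17% lower). It was PIDD1, a death domain gene, at 4.08 FPKM against 6.20 FPKM (log2 ratio -0.61, and -0.54 after the correction). ACER2, a ceramidase gene, came close to the limit in both comparisons (-0.57 and -0.56). ZMAT3, an RNA-binding protein gene, differed between the ZSCAN5A siRNAs, at 3.22 FPKM with si4 and 6.09 FPKM with si5 against 6.50 FPKM. The highest log2 ratios with the ZSCAN5A siRNAs were those of POLK (0.33), TRIAP1 (0.23) and CMBL (0.21), and with si1 those of BAK1 (0.32), CMBL (0.24) and PMAIP1 (0.24), the last encoding the BH3-only protein NOXA at 411, 307 and 403 FPKM with si4, si5 and si1 against 341 FPKM. The median of the list was -0.04 with the ZSCAN5A siRNAs and -0.05 with si1, and 17 and 18 of its 40 genes lay above the control. Over all genes tested, 6064 of 12993 and 6261 of 12921 did.

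p21 restrains the cell cycle in part through the DREAM complex, which represses genes of mitosis and cytokinesis. All 14 genes of a p21-DREAM list were tested, and 0 passed in either comparison. Their log2 ratios ran from -0.23 (PLK1) to 0.23 (BIRC5) with the ZSCAN5A siRNAs and from -0.35 (PLK1) to 0.22 (CCNB1) with si1, around medians of 0.04 and -0.01. Next to these ends stood CDC25C (-0.16), AURKB (-0.10), CDC20 (0.17) and CCNB1 (0.21) with the ZSCAN5A siRNAs, and KIF23 (-0.20), AURKB (-0.12), CDC20 (0.05) and ECT2 (0.05) with si1. The mitotic kinase PLK1 stood at 47.5, 51.6 and 45.7 FPKM against 58.2 FPKM, and cyclin B1 (CCNB1) at 115, 122 and 119 FPKM against 102 FPKM, so that these 2 genes of the same list lay on opposite sides of the control in all 3 libraries.

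**Figure D4:**
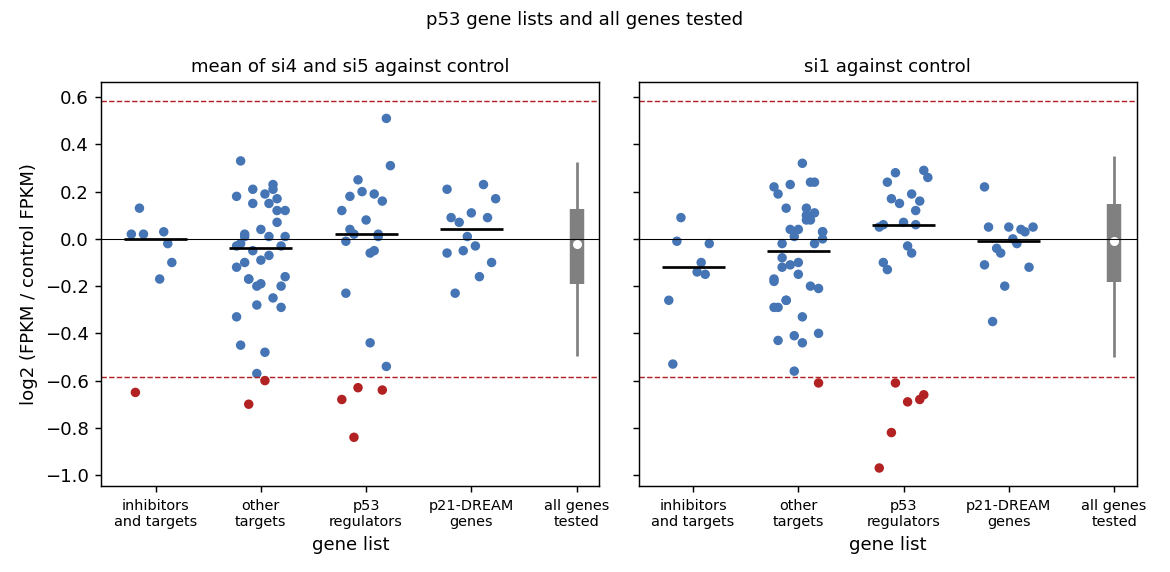
Log2 ratios to the control of the 9-gene list, the other p53 targets, the p53 regulators and the p21-DREAM genes, 1 point per gene tested, for the mean of si4 and si5 and for si1, beside the spread of all genes tested (line from the 5th to the 95th percentile, box from the lower to the upper quartile, white dot at the median). Black lines mark list medians, between -0.12 and 0.06, and red points, those past 1.5-fold, all lie on the lower side.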

How the data were processed

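RNA from HEK-293 cells was sequenced as 4 mRNA libraries, 1 each for si4, si5, si1 and a scrambled control; labels and methods name different stranded kits. The authors computed and deposited 1 table of FPKM values, and their processing notes list CASAVA 1.8.2, Trimmomatic 0.30, TopHat2 2.1.0, Cufflinks 2.2.1 and hg19. It holds 0 other per-sample columns. Values were used as deposited, without a pseudocount.

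The 9 genes and all lists were chosen with earlier results of these data known. As in the methods, si4 and si5 were grouped against the control, here as the mean of their FPKM, and si1 was compared singly. For ZSCAN5A the study also required an adjusted p under 0.05 from its own software, whereas the fold alone was used here. A gene at 1 FPKM or above in a library of the comparison was tested, and called above 1.5-fold. The control and the si1 value, or the mean of si4 and si5, had to be above 0. For counts over all 3 siRNA libraries, every value had to be above 0. Text names the 9 genes, the targeted genes, list genes past the limit and the 3 highest and 3 lowest of each list. Of the genes planned for the regulator list and for the markers, 1 each is not reported here. Depth came from whole-number proportions among low FPKM values (70.2% of 1745 genes under 0.1 FPKM, tolerance 0.05%), about 53700000 to 83000000 fragments per library, and intervals cover counting error only.

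Length and GC content, in 10 by 5 bins, came from the GENCODE annotation of GRCh37, as did start sites; 95.3% of 12787 expressed rows matched. The match was by gene symbol, for 1164 of these rows an older one, without a check of the chromosome. Some rows may therefore carry the length and GC content of another gene, as FAS in the list of other targets did. Alternatives used Python 3.11.15, R 4.3.3 and limma 3.58.1 on log2(FPKM + 1). The fold rule, the depth recovery and limma were run on simulated libraries with counting noise alone. The scaling and the length and GC correction were not simulated.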

Additional observations from a re-analysis of the deposited data

How the results depend on the processing

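MDM4 kept a log2 ratio from -0.66 to -0.52 with the ZSCAN5A siRNAs and from -0.53 to -0.40 with si1. Its call with the ZSCAN5A siRNAs, the 1 call among the members, was lost (0) with a pseudocount of 1 FPKM, the length and GC correction, a limit of 2-fold and limma, and held with si4 or si5 left out. With si1, 1 member passed with no expression limit (GDF15) and 1 at 5/4-fold (MDM4) against 0. In all 3 libraries, 1 passed at 5/4-fold, and leaving out 1 library gave 0 to 1, the 1 being MDM4 without si1. The number of members on one side of the control, 3, was 4 to 5 when 1 library was left out. Counts that ask several libraries to lie on one side can only stay or rise when 1 is left out. The member median with the ZSCAN5A siRNAs, -0.001, was -0.021 with no expression limit, 0.013 and 0.024 with median-ratio and upper-quartile scaling, -0.049 with the length and GC correction, and -0.019 to -0.006 with si4 or si5 left out. That with si1, -0.117, was -0.136, -0.106 and -0.128 with no expression limit, upper-quartile scaling and the length and GC correction. Scaling moved the median of all genes by at most 0.025. The causes were not tested.

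For the other targets with the ZSCAN5A siRNAs, 2 calls became 4 with no expression limit, 1 with upper-quartile scaling or the length and GC correction, 7 at 5/4-fold and 0 at 2-fold or with limma. With si1, 1 became 4 with no expression limit, 8 at 5/4-fold, and 0 with a pseudocount of 1 FPKM, the length and GC correction or 2-fold. For the regulators with the ZSCAN5A siRNAs, 4 became 1 with that pseudocount, 7 at 5/4-fold, and 0 with the length and GC correction, 2-fold or limma. With si1, 6 became 3 at a limit of 5 FPKM or with that pseudocount, 2 with the length and GC correction and 0 at 2-fold. Apart from limma, the share of all genes tested that passed at these changed settings was not computed. The counts here and in the paragraph above therefore have no background beside them. limma called 10 genes of 13078 at an adjusted p under 0.05 and 1607 at an unadjusted p under 0.05.

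No paired analysis was possible because each siRNA has 1 library and the replicate numbers in the labels are names of siRNAs. Depth limits GDF15, at 0.576 to 0.895 FPKM, more than any other member.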

Other observations

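A list of 8 other inhibitors of cyclin-dependent kinases and pocket proteins, the genes that act beside p21 on the same kinases or downstream of them, was measured in the same libraries. CDKN2A, whose row covers p16, another such inhibitor, was placed in the regulator list and is not among the 8. It lay above the control, with log2 ratios of 0.51 with the ZSCAN5A siRNAs and 0.29 with si1. All 8 were tested, and 0 passed 1.5-fold with the ZSCAN5A siRNAs, beside 3.79% of all genes tested. Of the 8, 7 lay below the control, beside 6929 of the 12993 genes tested, and the median log2 ratio was -0.13. The lowest ratios were those of RB1, the retinoblastoma gene (-0.26), CDKN1B, which encodes p27 (-0.20), and CDKN1C, which encodes p57 (-0.17). The one gene above the control was CDKN2C (0.22), and CDKN2D (-0.04) and RBL1 (-0.08) came next. RB1 stood at 16.4 FPKM with si4, 20.8 FPKM with si5, 19.8 FPKM with si1 and 22.3 FPKM in the control.

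With si1, all 8 lay below the control around a median of -0.17, and 1 fell past the limit, CDKN1C, at 1.55 FPKM against 2.33 FPKM (log2 ratio -0.59), a ratio close to the limit at about 125 fragments per kilobase in the control. CDKN1B stood at 35.7 FPKM with si1 against 45.2 FPKM (-0.34) and CDKN2D at 6.61 FPKM against 7.96 FPKM (-0.27). The highest ratios with si1 were those of CDKN2C (-0.06), CDKN2B (-0.12) and RBL2 (-0.12). Over all 12921 genes tested with si1, 6660 lay below the control, the median was -0.010, and 4.01% passed the limit, 3.17% lower. Both comparisons use the same control library.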
